A study of Mus musculus with 10 samples.

Results

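Plekha1, Pde3a, Plxdc2, Kank2, Alpk2, Pak3 and Cgnl1 are 7 genes of signalling, cell cortex and cell junctions whose RNA levels differed between p27-/- and p27-/-;Sox2+/- intermediate lobes (ILs) of the mouse pituitary. They were chosen by that difference: all 7 belong to the 25 genes past an adjusted p of 0.05 between the mutants in a limma fit of 17268 genes, out of 29527 in the table. All 7 had a mean of at least 10 on the linear scale and so passed the filter on low levels. Bulk RNA of dissected ILs was sequenced at an age of 2 to 3 months, with 1 library per mouse: 4 mice were wild type (WT), 3 were p27-/- and 3 were p27-/-;Sox2+/-. WT mice carried neither mutation, p27-/- mice lacked both copies of Cdkn1b, the gene of the cell cycle inhibitor P27, in every cell, and p27-/-;Sox2+/- mice in addition lacked 1 copy of Sox2. Both alterations were germline, so that melanotrophs, stem cells (SCs) and all other cells of the dissected lobe carried them, and mice heterozygous for Sox2 alone were not analysed here. The question put by the design was how loss of p27 alters the IL and which of its effects differ when Sox2 dosage is lowered.

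The IL consists mostly of melanotrophs, endocrine cells that make pro-opiomelanocortin and process it to melanocyte-stimulating hormone, and it is flanked by a layer of SOX2-positive SCs along the pituitary cleft. Loss of p27 leads to melanotroph tumors in mice, and SOX2 is a transcription factor expressed in the SCs and, at a lower level, in melanotrophs. The 7 genes act at the cell surface and beneath it: Plxdc2 encodes a transmembrane receptor, Pde3a an enzyme that degrades cyclic nucleotides, Plekha1 an adaptor that binds a membrane phosphoinositide, Pak3 and Alpk2 protein kinases, Kank2 a scaffold of the cell cortex, and Cgnl1 a protein of epithelial junctions.

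The labels of tissue and genotype were checked first. Melanotroph markers were abundant in every genotype, with a mean log2 value of Pomc of 18.46 in WT, 18.77 in p27-/- and 18.43 in p27-/-;Sox2+/- samples. The log2 value of Cdkn1b averaged 8.61 ± 0.19 in the 4 WT, 8.18 ± 0.12 in the 3 p27-/- and 7.89 ± 0.19 in the 3 p27-/-;Sox2+/- samples (mean ± SD), so that reads were still counted on the gene in the mutants. Sox2 was 7.46 ± 0.20, 7.28 ± 0.19 and 7.0 ± 0.10 in the same order, and its difference between the mutants did not pass the threshold (adjusted p = 0.79, limma). Xist was low in 4 samples, namely in WT replicates 3 and 4 and in 1 sample of each mutant, so every genotype held both levels. The table gives no reads per sample, so depth is unknown and precision is set by how many mice there were.

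Promoter windows of RefSeq on mouse build GRCm38.p6 were read for Plekha1, Kank2, Pak3 and Cgnl1, 7 windows of the 250 bases before a transcription start. Motifs were searched on both strands, and none overlapped another. ACAAAG and ACAATG, cores bound by SOX proteins, stood in 16.5% and 10.7% of all 32851 mouse windows and in 0 of the 7. TTTGGCGC and TTTCCCGC, bound by E2F factors of the cell cycle, stood in 0.417% and 0.895% of all windows and in 0 of the 7. The GC box GGGCGG, bound by SP factors, stood in 32.7% of all windows and in 2 of the 7, those of Kank2 and Cgnl1, which are shown because they are the only windows with a match. Both lie on the minus strand of chromosome 9, Kank2 at chr9:21798547-21798796 and Cgnl1 at chr9:71771603-71771852, and are printed 5′ to 3′ towards the start with GC boxes of either strand in capitals.
Kank2: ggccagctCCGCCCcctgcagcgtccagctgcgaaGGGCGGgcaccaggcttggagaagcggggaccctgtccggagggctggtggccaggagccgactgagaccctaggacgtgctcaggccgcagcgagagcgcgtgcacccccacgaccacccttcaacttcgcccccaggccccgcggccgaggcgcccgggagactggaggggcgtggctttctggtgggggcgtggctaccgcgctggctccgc
Cgnl1: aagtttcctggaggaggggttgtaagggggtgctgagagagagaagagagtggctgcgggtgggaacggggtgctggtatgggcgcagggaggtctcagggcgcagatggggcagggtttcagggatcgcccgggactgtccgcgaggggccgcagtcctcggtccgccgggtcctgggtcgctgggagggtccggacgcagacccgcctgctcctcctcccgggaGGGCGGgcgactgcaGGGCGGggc
The Kank2 window had a box on the opposite strand 242 bases and a box on the gene's strand 215 bases before the start, and the Cgnl1 window had boxes 24 and 9 bases before it. The Cgnl1 window lies inside the gene, which spans 71626507 to 71809300, and so precedes an internal start. The Kank2 window adjoins the end of its gene at 21798546. The windows held 24 and 20 CpG dinucleotides, against a median of 6 over all windows, and 74% and 70.8% G or C, against a median of 52.4%. A match is a description of the letters and not a binding site.

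Values below are the deposited log2 values, so a difference of 1 is a doubling on that scale. They compare samples within a gene and not genes with each other, since they are not divided by gene length. In bulk samples fewer cells of a type and less RNA per cell cannot be told apart. The 7 genes fell into those that were higher in p27-/- than in p27-/-;Sox2+/- samples, Plekha1, Pde3a and Pak3, and those that were lower, Plxdc2, Kank2, Alpk2 and Cgnl1. Of all tested genes, 0.0637% passed as lower and 0.0811% as higher in p27-/-;Sox2+/- samples. In all 7 the mutant groups did not overlap, as they did not in 15.3% of all tested genes, a count that the choice of the genes fixes. All differences between the mutants given here are therefore descriptions with no test.

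**Figure D1:**
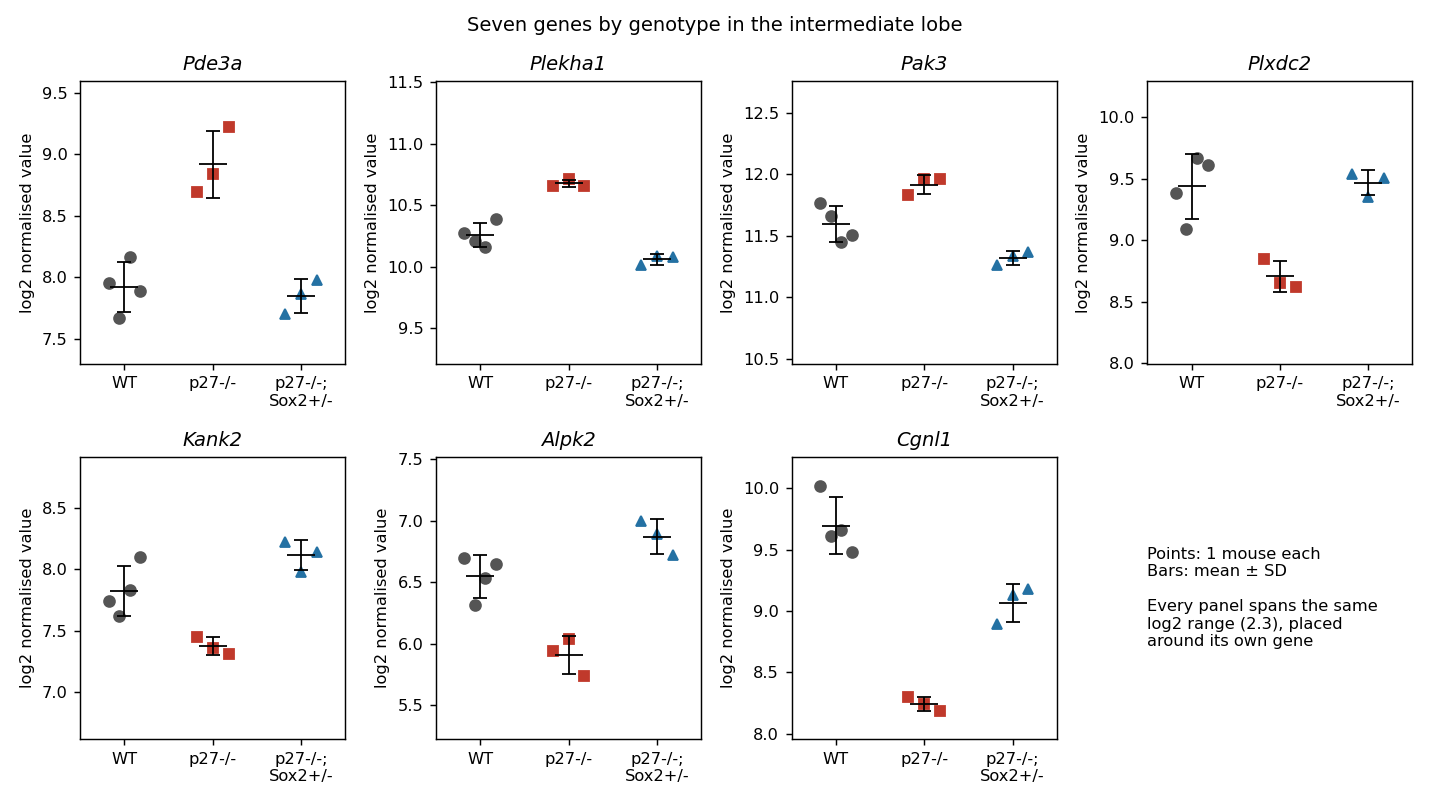
Deposited log2 values of the 7 genes in each of the 10 ILs, 1 panel a gene, with genotype on the horizontal axis; points are mice, bars the mean ± SD (n = 4, 3 and 3), and each panel spans the same log2 range. The mutant groups are apart in each panel, the WT mean lies between theirs except for Cgnl1, and the WT points reach those of p27-/-;Sox2+/- for Pde3a, Plxdc2 and Kank2.

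Plxdc2 (ENSMUSG00000026748, chromosome 2, 16355740 to 16761132 of GRCm38) encodes plexin domain containing 2, a cell surface receptor of pigment epithelium-derived factor (PEDF). Its log2 values were 9.38, 9.09, 9.67 and 9.61 in WT, 8.85, 8.65 and 8.62 in p27-/- and 9.54, 9.35 and 9.51 in p27-/-;Sox2+/- samples. The 3 p27-/- samples were below all others, and the p27-/-;Sox2+/- samples lay within the WT range. The means in these groups of 4, 3 and 3 mice were 9.44 ± 0.26, 8.71 ± 0.12 and 9.47 ± 0.10 (SD). The difference from WT was -0.73 in p27-/- (95% interval -1.01 to -0.46) and 0.03 in p27-/-;Sox2+/- samples (-0.25 to 0.30), and the level was 1.69-fold higher in p27-/-;Sox2+/- than in p27-/-.

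Pde3a (ENSMUSG00000041741, chromosome 6, 141249269 to 141506862) encodes phosphodiesterase 3A, which hydrolyses cyclic AMP and is inhibited by cyclic GMP. Levels on the log2 scale were 7.95, 7.67, 8.16 and 7.89 in WT, 8.69, 8.84 and 9.22 in p27-/- and 7.70, 7.86 and 7.98 in p27-/-;Sox2+/- samples. The p27-/- samples were above all others, while p27-/-;Sox2+/- and WT samples overlapped. The means were 7.92 ± 0.20, 8.92 ± 0.27 and 7.85 ± 0.14 (SD), and the difference from WT was 1.00 in p27-/- (95% interval 0.70 to 1.30) and -0.07 in p27-/-;Sox2+/- samples (-0.37 to 0.23). The level in p27-/- was 2.1-fold that in p27-/-;Sox2+/- samples, the widest difference among the 7 genes.

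Plekha1 (ENSMUSG00000040268, chromosome 7, 130860551 to 130913494) encodes TAPP1, whose pleckstrin homology domain binds phosphatidylinositol 3,4-bisphosphate, a product of phosphoinositide 3-kinase signalling. The log2 values of Plekha1 were 10.27, 10.21, 10.16 and 10.39 in WT, 10.66, 10.71 and 10.66 in p27-/- and 10.01, 10.09 and 10.08 in p27-/-;Sox2+/- samples. No pair of the 3 genotypes overlapped, with WT in the middle. The means were 10.26 ± 0.10, 10.68 ± 0.02 and 10.06 ± 0.04 (SD), the difference from WT was 0.42 in p27-/- (95% interval 0.25 to 0.59) and -0.20 in p27-/-;Sox2+/- samples (-0.37 to -0.03), and the level was 1.53-fold higher in p27-/- than in p27-/-;Sox2+/-.

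Pak3 (ENSMUSG00000031284, chromosome X, 143518366 to 143797796) encodes a p21-activated kinase, a target of the small GTPases RAC1 and CDC42 that acts on the actin cytoskeleton and is best known in neurons. Log2 values of Pak3 were 11.77, 11.66, 11.45 and 11.51 in WT, 11.83, 11.96 and 11.96 in p27-/- and 11.26, 11.34 and 11.37 in p27-/-;Sox2+/- samples. The genotypes were again in the order p27-/-, WT, p27-/-;Sox2+/- with no overlap. The means were 11.60 ± 0.15, 11.92 ± 0.07 and 11.32 ± 0.06 (SD), the difference from WT was 0.32 in p27-/- (95% interval 0.13 to 0.52) and -0.27 in p27-/-;Sox2+/- samples (-0.47 to -0.08), and the level was 1.51-fold higher in p27-/- than in p27-/-;Sox2+/-. The gene is X-linked, and with Xist as a covariate the difference between the mutants was again -0.60. Mean Xist was 12.89 in both mutants, so this covariate could not move the difference, and nothing is read from it.

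Alpk2 (ENSMUSG00000032845, chromosome 18, 65265529 to 65393888) encodes alpha kinase 2, of the atypical alpha-kinase family, whose catalytic domain differs in sequence from that of conventional kinases. Alpk2 had log2 values of 6.70, 6.31, 6.53 and 6.65 in WT, 5.94, 6.04 and 5.74 in p27-/- and 7.0, 6.89 and 6.72 in p27-/-;Sox2+/- samples. The genotypes did not overlap, with p27-/- lowest and p27-/-;Sox2+/- highest, although the lowest p27-/-;Sox2+/- sample was close to the highest WT sample. The means were 6.55 ± 0.17, 5.91 ± 0.15 and 6.87 ± 0.14 (SD), the difference from WT was -0.64 in p27-/- (95% interval -0.92 to -0.36) and 0.32 in p27-/-;Sox2+/- samples (0.04 to 0.60), and the level was 1.95-fold higher in p27-/-;Sox2+/- than in p27-/-.

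Kank2 (ENSMUSG00000032194, chromosome 9, 21766773 to 21798546) encodes a KN motif and ankyrin repeat protein that binds talin at the rim of focal adhesions and links them to microtubules. The Kank2 log2 values were 7.74, 7.62, 7.83 and 8.10 in WT, 7.45, 7.36 and 7.31 in p27-/- and 8.22, 7.98 and 8.14 in p27-/-;Sox2+/- samples. The p27-/- samples were lowest, and only WT replicate 4 reached into the p27-/-;Sox2+/- range. The means were 7.83 ± 0.20, 7.37 ± 0.07 and 8.11 ± 0.12 (SD), the difference from WT was -0.45 in p27-/- (95% interval -0.71 to -0.20) and 0.29 in p27-/-;Sox2+/- samples (0.03 to 0.54), and the level was 1.67-fold higher in p27-/-;Sox2+/- than in p27-/-. Its promoter window is the first of the pair printed above.

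Cgnl1 (ENSMUSG00000032232, chromosome 9, 71626507 to 71809300) encodes paracingulin, a protein of tight and adherens junctions. Log2 values of Cgnl1 were 10.02, 9.61, 9.66 and 9.48 in WT, 8.30, 8.24 and 8.19 in p27-/- and 8.89, 9.13 and 9.18 in p27-/-;Sox2+/- samples. All 3 genotypes were apart, and among the 7 genes Cgnl1 alone had WT outside the range of both mutants rather than between them or overlapping p27-/-;Sox2+/-. The means were 9.69 ± 0.23, 8.24 ± 0.06 and 9.07 ± 0.15 (SD). The difference from WT was -1.45 in p27-/- (95% interval -1.71 to -1.19) and -0.62 in p27-/-;Sox2+/- samples (-0.88 to -0.37), and the level was 2.73-fold higher in WT than in p27-/- and 1.54-fold higher in WT than in p27-/-;Sox2+/-. Between the mutants it was 1.77-fold higher in p27-/-;Sox2+/-.

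Set against WT, p27-/- samples did not overlap WT in 7 of the 7 genes, where 20.6% of all tested genes did not, and p27-/-;Sox2+/- samples did not in 4 of the 7, where 15% did not. All 3 genotypes were apart in Plekha1, Pak3, Alpk2 and Cgnl1, 4 of the 7, and in 1.4% of all tested genes. Nothing is read from these counts, since both comparisons use the mutant samples that chose the genes and share the WT samples. On a scale that runs from 0 at the p27-/- mean to 100 at the p27-/-;Sox2+/- mean, the WT mean stood at 96.5 for Plxdc2, 93.4 for Pde3a, 68.2 for Plekha1, 66.6 for Alpk2, 61 for Kank2, 53.9 for Pak3 and 176 for Cgnl1. Both ends of this scale are means that chose the genes, so the places are descriptions with no test. By the means alone, WT was beside p27-/-;Sox2+/- for the receptor and the phosphodiesterase. It was nearer the middle for the adaptor, the kinases and the cortical scaffold, and beyond p27-/-;Sox2+/- for the junction protein. The places carry no error, and the SD of the WT log2 values ran from 0.10 for Plekha1 to 0.26 for Plxdc2.

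With 3 samples in each mutant group, the mean of the 2 group means is independent of their difference, the value that chose the genes. The mean of both mutants against WT was tested for each gene in 1 fit of all 17268 genes. Both contrasts share each gene's estimate of spread, and a choice by p favours genes with a small spread. The standard errors and adjusted p-values of this test are therefore not free of the choice. This mean was above WT by 0.46 for Pde3a (standard error 0.12, limma adjusted p = 0.0257) and below it by 1.04 for Cgnl1 (standard error 0.10, adjusted p = 0.000141). These were 2 of the 7 genes, where 9.2% of all tested genes passed, 3.52% higher and 5.69% lower. Cgnl1 was lower in 6 of 6 mutant samples than in every WT sample, a separation found in 8.72% of all tested genes, and it passed in each of 21 alternative settings, with adjusted p-values from 6.36e-05 to 0.00689. For Pde3a the p27-/- samples were above WT (difference 1.00) while p27-/-;Sox2+/- samples overlapped it (-0.07). This split rests on the difference between the mutants that chose the gene, so it is a description with no test. The overlap does not show that p27-/-;Sox2+/- samples were equal to WT. The call for Pde3a was lost in 7 of 21 settings, with adjusted p-values up to 0.262. With 1 sample left out, the call was lost for p27-/-;Sox2+/- replicates 2 and 3, for p27-/- replicate 3 and for WT replicates 2 and 4, with adjusted p-values up to 0.0678.

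For the other 5 genes the mean of the mutants did not pass against WT. Plxdc2 was nearest, at -0.35 (95% interval -0.58 to -0.12, adjusted p = 0.0549), and it passed with array weights (0.0331), after quantile normalization (0.0485) and without WT replicate 2 (0.00843). It did not pass in the other 18 of 21 settings, and was -0.21 with the posterior lobe score (0.426) and -0.23 with the fibroblast and mural score (0.401) as a covariate. The differences were 0.11 for Plekha1 (95% interval -0.03 to 0.26, adjusted p = 0.314), 0.02 for Pak3 (-0.14 to 0.19, 0.884), -0.16 for Alpk2 (-0.40 to 0.08, 0.391) and -0.08 for Kank2 (-0.30 to 0.13, 0.654). A mean near 0 here means that the mutants lay on opposite sides of WT, and it does not show that either was equal to WT.

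**Figure D2:**
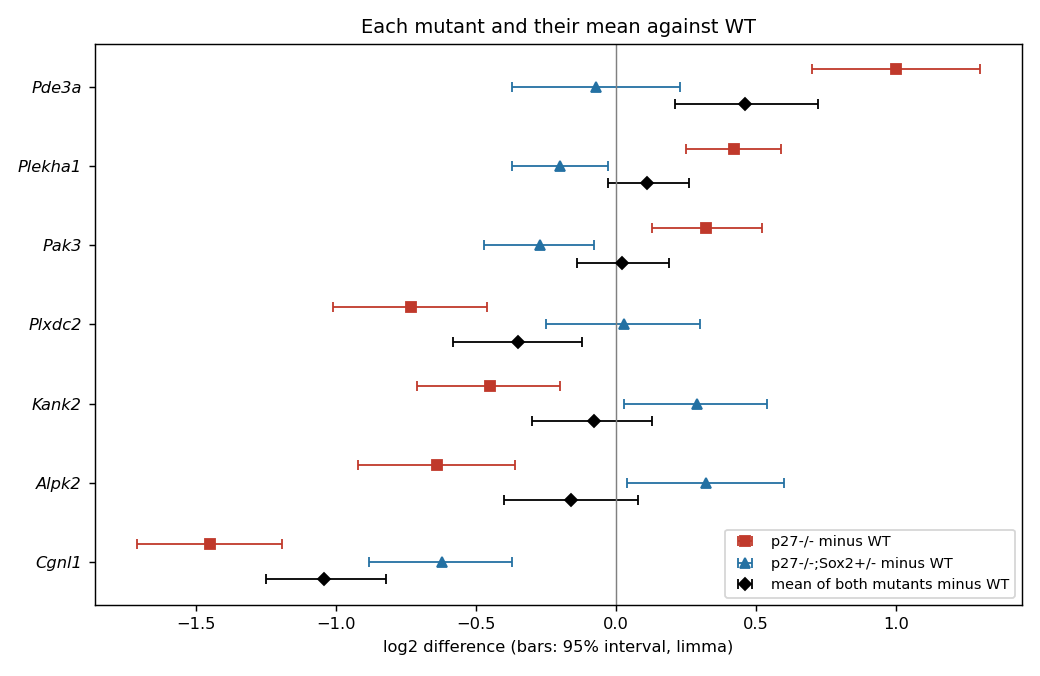
Log2 difference from WT of the 7 genes with 95% intervals in p27-/- and in p27-/-;Sox2+/- samples and for the mean of both mutants, which is the tested value; the line at 0 is the WT mean. The mutant samples that chose the genes enter the intervals of each mutant, which are descriptions and no test; the mean of both passed the test for Pde3a and Cgnl1.

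The calls between the mutants depended on the samples and on the fit. Among the 25, Plekha1, Pde3a, Alpk2, Cgnl1, Pak3, Kank2 and Plxdc2 ranked 3, 4, 7, 9, 12, 17 and 24 by p, and the adjusted p-values that chose them ran from 0.0163 to 0.0491. Plxdc2, with a difference of 0.76, stood just inside the threshold, and Diras2 at -0.59 (adjusted p = 0.0564) and 1700086L19Rik at 0.59 (0.0611) stood just outside. Leaving out any 1 of the 6 mutant samples left 0 or 1 of the 7 genes past the threshold, whereas the differences themselves moved little, for example from -0.63 to -0.59 for Plekha1, from -1.18 to -0.92 for Pde3a and from 0.77 to 0.91 for Cgnl1 over all settings. Without the filter on low values 3 of the 7 passed, without the mean-variance trend 3 and with a fibroblast and mural score as a covariate 4.

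Over the 10 samples the levels of the 7 genes moved with each other, as genes chosen by 1 contrast must in part. Pearson's r was 0.93 between Kank2 and Alpk2, 0.90 between Kank2 and Plxdc2, 0.90 between Plekha1 and Pak3 and -0.94 between Kank2 and Pak3. The coefficients of Cgnl1 ran in size from -0.46 with Pak3 and 0.53 with Kank2 to 0.76 with Plxdc2 and -0.78 with Pde3a. These coefficients, and those that follow, describe 10 samples in 3 genotypes that share libraries, and carry no test.

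The 3 tested genes with the highest correlation over the 10 samples were named for each of the 7. Plxdc2, Kank2 and Alpk2 had a neighbour in common, Enpep, which encodes aminopeptidase A, with r of 0.956, 0.964 and 0.955. Enpep had mean log2 values of 9.17 in WT, 8.66 in p27-/- and 9.37 in p27-/-;Sox2+/- samples, and is itself among the 25 genes. The others were Abi3bp (0.944) and Lamc1 (0.941), the latter a laminin chain of basement membranes, for Plxdc2, Mxra8 (0.969) and Cyp2s1 (0.959) for Kank2, and Odz3 (0.968) and Cyp2s1 (0.959) for Alpk2.

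Pak3 was closest to Cd24a (0.951), Gpr12 (0.945) and Gad2 (0.925), which encodes an enzyme of GABA synthesis and had mean log2 values of 10.96 in WT, 11.77 in p27-/- and 10.58 in p27-/-;Sox2+/- samples. Like Enpep, Cd24a and Gad2 are among the 25 genes past the threshold between the mutants. Cgnl1 was closest to Pcolce (0.971), which enhances procollagen processing, Kcnd3 (0.960), a potassium channel, and Bcl2 (0.958), an inhibitor of apoptosis with means in the same order as those of Cgnl1, 9.19 in WT, 8.78 in p27-/-;Sox2+/- and 8.41 in p27-/- samples. Plekha1 was closest to Fam195a (0.958), Angpt2 (0.929), a ligand of the endothelial receptor TIE2, and F830208F22Rik (0.922). Pde3a was closest to Sh2d2a (0.919), Fam132b (0.919) and 5330437I02Rik (0.916). Fam195a, F830208F22Rik and Fam132b had mean log2 values under 4, where the deposited values vary little between samples.

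The genes that act with the 7 were examined as 7 lists of 134 genes, of which 128 were tested. Against WT, 13 of the 128 passed in p27-/- samples, or 10.2%, where 7.77% of all tested genes did, with 5 higher and 8 lower (3.16% and 4.61% of all tested genes). In p27-/-;Sox2+/- samples 2 passed, or 1.56%, where 2.71% of all did, and both were lower (0.828% of all tested genes passed as higher and 1.88% as lower). Between the mutants 0 of the 128 passed by limma, where 0.145% of all tested genes did, and 13 had an unadjusted p under 0.05, or 10.2%, where 6.65% of all tested genes did. For the mean of both mutants 10 passed, or 7.81%, with 1 higher and 9 lower, where 9.2% of all tested genes passed, 3.52% higher and 5.69% lower. The median difference between the mutants lay between -0.03 and 0.05 in each list, and was -0.0044 over all tested genes.

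**Figure D3:**
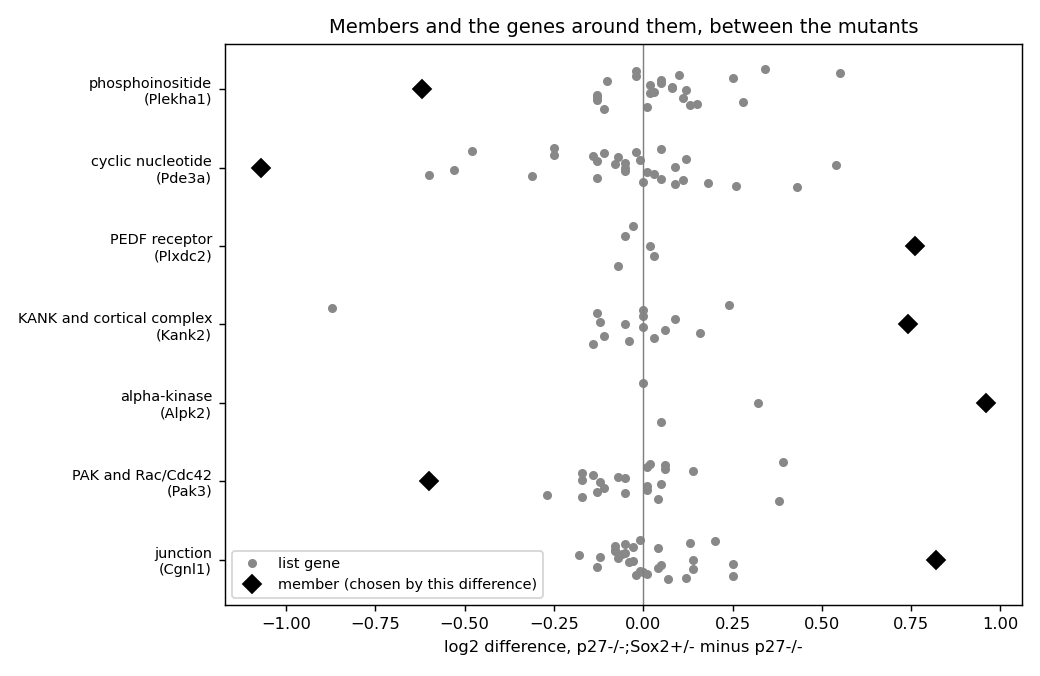
Log2 difference between p27-/-;Sox2+/- and p27-/- samples of the genes in the 7 lists, 1 point a gene, with the 7 genes themselves marked; the horizontal lines of the lists are named after the gene they surround. The listed genes lie around 0, and none passed the adjusted p of 0.05.

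Junction genes around Cgnl1, which include the components of tight and adherens junctions, had the highest share among the longer lists. In p27-/- samples 5 of 29 passed against WT, or 17.2%, each of them lower, where 7.77% of all tested genes passed and 4.61% passed as lower. By unadjusted limma p under 0.05 the list did not stand out, with 7 of 29, where 24.1% of all tested genes were under it. The median difference of the list was -0.12, and that of all tested genes was 0.0088. Magi1, a scaffold of tight junctions, had log2 values of 8.47, 8.37, 8.64 and 8.30 in WT and of 7.99, 7.78 and 7.74 in p27-/- samples, which did not overlap. It fell by 0.61 in p27-/- (limma adjusted p = 0.00503) and by 0.55 in p27-/-;Sox2+/- samples (adjusted p = 0.0154), the only one of the 29 to pass in both, and the second of these calls was lost in 3 of 21 settings (adjusted p up to 0.165). In p27-/- samples its relative Magi2 fell by 0.46 (adjusted p = 0.00674), and Cdh1, which encodes E-cadherin, fell by 0.58 (adjusted p = 0.0126), calls that were lost in 1 and 2 of 21 settings (up to 0.0533 and 0.0757). Ctnna1 and Arhgef18, the alpha-catenin that ties cadherins to actin and a guanine nucleotide exchange factor, complete the count and were named after their values were seen, with differences of -0.30 and -0.32. Magi2 and Cdh1 differed from WT by -0.20 and -0.33 in p27-/-;Sox2+/- samples, short of the threshold, and by 0.25 each between the mutants, where they did not pass either. Cingulin itself, the paralogue Cgn, differed by -0.02 between the mutants (95% interval -0.36 to 0.33).

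Of 24 phosphoinositide genes around Plekha1, 1 passed against WT. Ptpn13, a tyrosine phosphatase whose PDZ domains bind the PLEKHA1 protein, had log2 values of 9.32, 9.13, 9.76 and 9.46 in WT and 8.60, 8.54 and 8.47 in p27-/- samples. It fell by 0.88 in p27-/- (standard error 0.12, limma adjusted p = 0.00146) and by 0.54 in p27-/-;Sox2+/- samples (adjusted p = 0.0345), the first kept in 21 of 21 settings and the second lost in 12. Plekha2, the closest paralogue of Plekha1, differed by 0.05 between the mutants (95% interval -0.24 to 0.35).

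The list of 34 cyclic nucleotide genes around Pde3a holds phosphodiesterases, adenylyl cyclases and protein kinase A (PKA) subunits, and 30 were tested. In p27-/- samples 3 passed, or 10%, where 7.77% of all tested genes did. By limma 6 of the 30 had an unadjusted p under 0.05, where 24.1% of all tested genes did. The 3 were higher and encode PKA subunits. The PKA subunits Prkaca, Prkar2a and Prkar1b differed from WT by 0.14, 0.05 and 0.02 and did not pass. Prkacb, a catalytic subunit, rose by 0.34 (limma adjusted p = 0.017), and the regulatory subunits Prkar2b and Prkar1a rose by 0.59 (adjusted p = 0.0385) and 0.40 (adjusted p = 0.0456). In p27-/-;Sox2+/- samples none of the 30 passed, and the same genes differed from WT by 0.20, 0.11 and 0.15. The call was lost in 5 of 21 settings for Prkacb, 13 for Prkar2b and 14 for Prkar1a. The paralogue Pde3b differed by -0.05 between the mutants (95% interval -0.35 to 0.25).

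Of 22 PAK and RAC/CDC42 genes around Pak3, 3 passed in p27-/- samples. Cdc42, a GTPase that activates the group of kinases to which PAK3 belongs, rose by 0.33 (limma adjusted p = 0.0428), and Cfl1, the actin-severing protein cofilin, rose by 0.48 (adjusted p = 0.04). Rhoq, a CDC42-related GTPase, fell by 0.53 (adjusted p = 0.0361). These calls were lost in 13, 17 and 9 of 21 settings, and none of the 22 genes passed in p27-/-;Sox2+/- samples. For the mean of both mutants 1 of the 22 passed, or 4.55%, where 9.2% of all tested genes did. This was Rhoj, at -0.44 (limma adjusted p = 0.0423), named after its values were seen. The other group members Pak1 and Pak2 differed between the mutants by -0.17 (95% interval -0.44 to 0.11) and -0.05 (-0.23 to 0.14).

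Of 15 KANK and cortical complex genes around Kank2, 1 passed in p27-/- samples, Vcl, which encodes vinculin of focal adhesions and adherens junctions. It fell by 0.43 (limma adjusted p = 0.0333), a call lost in 10 of 21 settings. For the mean of both mutants 1 of the 15 passed, or 6.67%, where 9.2% of all tested genes did. This was Phldb2, at -0.53 (limma adjusted p = 0.0424), named after its values were seen. Kank1, Kank3 and Kank4 differed between the mutants by 0.16 (95% interval -0.15 to 0.47), 0.06 (-0.24 to 0.36) and 0.00 (-0.29 to 0.30). None of the 5 genes listed around Plxdc2 (Plxdc1, Serpinf1, Nid1, Nid2 and Cttn) passed in any comparison. The paralogue Plxdc1 differed by -0.05 between the mutants (95% interval -0.27 to 0.18). Of 5 alpha-kinase genes around Alpk2, 3 were tested. Alpk1, a kinase that senses bacterial sugars, differed from WT by -0.55 in the mean of both mutants (limma adjusted p = 0.0298), while neither mutant alone passed (0.0544 and 0.12), and the call was lost in 9 of 21 settings, with adjusted p-values up to 0.16. It differed by 0.05 between them (95% interval -0.34 to 0.44). Alpk3 was under the minimum, at a mean log2 value of 0.14.

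Marker lists of the cells a dissected lobe can hold were scored as the mean of their log2 values, each gene centred on its mean over the 10 samples. The pituitary SC score, over 6 of 7 markers, ran from 0.10 to 0.35 in WT, from -0.38 to 0.01 in p27-/- and from -0.28 to 0.00 in p27-/-;Sox2+/- samples, so WT was apart from both mutants, as it was for Cgnl1. Sox2, the gene altered in p27-/-;Sox2+/- mice, is among these markers, so the score is not independent of genotype. The fibroblast and mural score, over 9 markers, ran from 0.01 to 0.43, from -0.49 to 0.21 and from -0.49 to 0.15 in the same order, and the endothelial score, over 7, from -0.10 to 0.37, -0.31 to -0.02 and -0.27 to 0.15. The SC and endothelial scores were not used as covariates, and the part of these cells in the levels of the 7 genes was not tested.

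The posterior lobe score, over 7 markers, ran from -0.50 to 0.82 in WT, from -0.35 to -0.09 in p27-/- and from -0.71 to 0.56 in p27-/-;Sox2+/- samples, and the anterior lobe score, over 7 of 8, from -0.29 to 1.68, the highest in WT replicate 2, from -0.79 to 0.60 and from -0.72 to 0.04. The melanotroph score, over 6 markers, ran from -0.18 to 0.11, from 0.00 to 0.12 and from -0.04 to 0.05, and the macrophage score, over 6, from -0.22 to 0.54, -0.11 to 0.06 and -0.30 to 0.02. The melanotroph score averages markers of both directions. Against WT, Pcsk1 passed as lower in both mutants and Pcsk2 as higher in p27-/- samples. That is 2 of 6 markers in p27-/- (7.77% of all tested genes passed) and 1 of 6 in p27-/-;Sox2+/- samples (2.71%). In the other lists each call was lower, with Cyp2f2, Fshb, Kdr and Pdgfra in p27-/- and Lcn2, Fshb and Kdr in p27-/-;Sox2+/- samples. All were named after their values were seen. For each of the 7 lists the scores of the mutants overlapped with each other, and no marker passed the threshold between them. Of the 48 tested markers, 6 had mutant groups that did not overlap, or 12.5%, where 15.3% of all tested genes did not. These were Pomc, Pcsk2, Sox2 and Acta2, lower in p27-/-;Sox2+/- than in p27-/- samples, and Cdh5 and Pdgfra, which were higher, and they were named after their values were seen. With the fibroblast and mural score as a covariate the mean of both mutants differed from WT by 0.52 for Pde3a (limma adjusted p = 0.106).

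**Figure D4:**
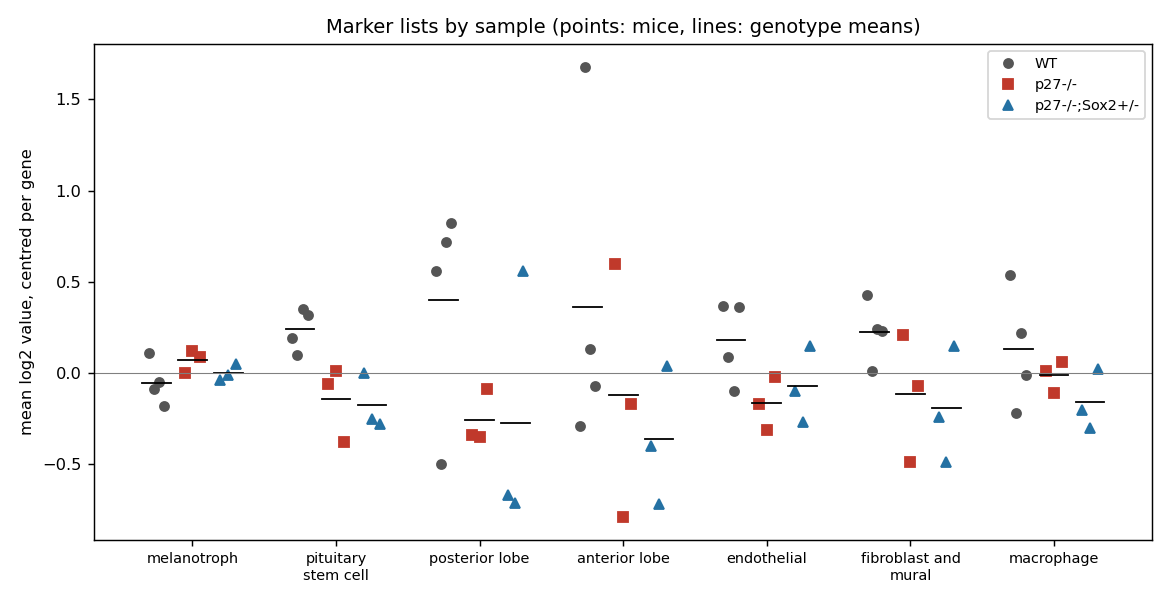
Score of each of the 7 marker lists in each of the 10 samples, in log2 units centred on the mean over the samples; points are mice in the 3 genotypes. WT is apart from both mutants for pituitary SC markers, which include Sox2, and the mutants overlap with each other in each list.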

How the data were processed

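Total RNA of dissected ILs was reverse transcribed and amplified with the Ovation RNA-seq System V2 and sequenced on a HiSeq4000. The authors aligned the reads with STAR 2.5.2a to GRCm38, counted them per gene with RSEM, normalized them with DESeq2 1.18.1 and deposited log2 values whose transformation is not given in the sources used here. Values of genes with few reads vary little between samples in this table, so their differences are understated. The 10 columns were assigned by the sample labels. The test was limma 3.58.1 (R 4.3.3: lmFit, contrasts and trended eBayes), fitted once to the 3 genotypes over the 17268 of 29527 genes whose mean log2 value reached 3.32, that is 10 on the linear scale, with Benjamini-Hochberg adjustment over all tested genes and a threshold of 0.05. The count test of the study was not run, since the table holds no counts. The fit was tested on simulated data with independent noise, for the mean of both mutants against WT only. The simulation did not include the choice of genes by the difference between the mutants, so it says nothing on that choice. Symbols and positions came from tables of GRCm38.p6. Summaries and plots were made with Python 3.11.15, numpy 2.4.6, pandas 2.3.3 and matplotlib 3.10.9.

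The 7 genes, the lists and the comparisons were chosen with earlier results of these data known. Named were the 7 genes, their closest paralogues, up to 3 genes a list with the smallest p against WT among those past the threshold, and the 3 genes most correlated with each of the 7. Alternatives were no filter, a minimum mean of 50, no trend, array weights, quantile normalization or median centring, a replicate block, Xist or a marker score as a covariate, only the 2 groups compared or the 6 mutant samples as 1 group, and each sample left out in turn. The labels do not say whether mice of a genotype came from separate litters.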

Additional observations from a re-analysis of the deposited data

Results flagged for a closer look

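In groups of 4 samples, a WT sample was marked where its gap to the nearest other, divided by the range of the group, exceeded 0.829, over 37 measures, and chance marks about 1 in 20 groups. None of the 7 genes had such a sample. Sox2 was 7.75 on the log2 scale in WT replicate 3, against 7.34 to 7.39 in the other WT samples, and without it the difference from WT in p27-/-;Sox2+/- samples was -0.36 (limma adjusted p = 0.145). Prkar1a was 13.11 in WT replicate 2, where the others lay between 12.86 and 12.89, and without it the difference from WT in p27-/- samples was 0.46 (adjusted p = 0.0273). Cfl1 was 10.87 in WT replicate 1, where the others lay between 10.28 and 10.36, and without it the difference from WT in p27-/- samples was 0.62 (adjusted p = 0.00183).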

How the results depend on the processing

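Each result was recomputed in 21 settings, 11 with another processing and 10 with 1 sample left out. Cgnl1 kept its call against WT in all of them, from -1.11 to -0.93, and Plekha1, Kank2, Alpk2 and Pak3 stayed short of the threshold in all. No call of the 7 genes changed direction, but differences near 0 changed sign. The mean of both mutants ran from -0.15 to 0.01 for Kank2 and from -0.03 to 0.08 for Pak3, and p27-/-;Sox2+/- against WT ran from -0.15 to 0.09 for Pde3a and from -0.09 to 0.18 for Plxdc2. The mean of both mutants for Pde3a was 0.52 with the fibroblast and mural score and 0.46 with the 6 mutant samples as 1 group, with adjusted p-values above 0.05 in both, and 0.38 to 0.55 with 1 sample left out. That for Plxdc2 passed at -0.38 with array weights and at -0.38 after quantile normalization, was -0.21 with the posterior lobe score and -0.23 with the fibroblast and mural score, and was -0.47 to -0.28 with 1 sample left out. Of the 7 genes, 1 passed with the fibroblast and mural score, 1 with the mutants as 1 group and 1 to 2 with 1 sample left out, in place of 2.

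Same-numbered samples correlated in their deviations from the group means by -0.238 to 0.182, so the replicate numbers were taken as shared numbers only. The replicate block gave 793 tested genes for both mutants against WT (1589 without it), 595 for p27-/- (1341), 209 for p27-/-;Sox2+/- (468) and 2 between the mutants (25), and 5 (13), 1 (2) and 0 (0) listed genes in the last 3 comparisons, with 1 (7) of the 7 genes between the mutants.

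For both mutants against WT the posterior lobe score gave 304 and the fibroblast and mural score 320 genes, and leaving out 1 sample 853 to 1859. For p27-/- against WT the counts were 831 without a filter, 334 and 411 with these scores, 807 with only the 2 groups and 403 to 1709 with 1 sample left out, and of the listed genes 5, 3, 3, 7 and 4 to 16. For p27-/-;Sox2+/- against WT they were 1240 with array weights, 102 and 62 with the scores, 260 with only the 2 groups and 80 to 658 with 1 sample left out, and of the listed genes 10, 0, 0, 1 and 0 to 3, with 1 without a filter. Between the mutants they were 6 without a filter, 8 without the trend, 283 with array weights, 15 after quantile normalization, 13 with the fibroblast and mural score, 45 with only the 2 groups and 0 to 41 with 1 sample left out. Of the 7 genes 3, 3 and 4 passed there without the filter, without the trend and with the fibroblast and mural score, and 0 to 7 with 1 sample left out. Of the listed genes 1 passed there with array weights, 1 with Xist as a covariate, 1 with only the 2 groups and 0 to 1 with 1 sample left out. The causes were not tested.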

Other observations

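Among the listed genes, Plekha6, a relative of Plekha1 with a pleckstrin homology domain, came nearest to the threshold between the mutants and was named after its values were seen. It had log2 values of 9.11, 9.28, 9.43 and 9.36 in WT, 8.94, 9.19 and 9.0 in p27-/- and 9.67, 9.51 and 9.60 in p27-/-;Sox2+/- samples. The p27-/-;Sox2+/- samples were above all others, and p27-/- and WT overlapped. The difference between the mutants was 0.55 (95% interval 0.33 to 0.77, limma adjusted p = 0.0713), and it passed with array weights (0.00799), with Xist as a covariate (0.0331), with only the 2 groups compared (0.0399) and without WT replicate 1 (0.0297), of 21 settings with adjusted p-values from 0.00799 to 0.446. The direction was opposite to that of Plekha1, which was lower in p27-/-;Sox2+/- than in p27-/- samples. Tln2 encodes a talin, a protein that links integrins to actin. It had the widest difference of the listed genes, -0.87, with a limma adjusted p of 0.683 and an SD of 0.42 to 0.76 within a genotype. The other listed talin gene, Tln1, differed by 0.00 between the mutants.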
